A study of Rattus norvegicus with 2 samples.

Results

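The CXC chemokines are small secreted proteins, named for a spacing of their first cysteines, that guide leukocytes to tissue. The genes described here were Cxcl1, Cxcl2, Cxcl9, Cxcl10, Cxcl11, Pf4 (Cxcl4 on the array) and Cxcl12. Every gene spot whose name on the array, without a suffix for predicted genes, was one of these genes or an older symbol of it was taken. This gave 8 probes for 7 genes, of 43379 gene spots and 41012 gene probes in all. Cxcl12 had 2 probes, annotated to transcript variants 1 and 3, and each other gene had 1 probe.

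HIP rats, made transgenic with the human gene of islet amyloid polypeptide (IAPP, a peptide that beta cells secrete with insulin), were compared with nondiabetic wild-type rats. The series title places it in islet inflammation, ductal proliferation and pancreatitis in type 2 diabetes. Amplified cDNA of 4 extracts was measured on 2 two-colour arrays, wild type 1 beside HIP 1 on array 1 and wild type 2 beside HIP 2 on array 2. Lists of 4 values follow the order wild type 1, HIP 1, wild type 2, HIP 2, called the extract order. Cy3 marked wild type and Cy5 marked HIP on both arrays, so an effect of the dye and one of the genotype cannot be told apart. Strain, age, tissue and the promoter of the transgene are not stated in the labels, which speak only of cell samples, and no treatment is listed for either genotype. In the HIP rat line as it is generally known, an insulin promoter drives human IAPP in beta cells. No label assigns the extracts to separate animals, so the p-values reflect the spread among these samples alone, and that spread may be technical. In such material, fewer cells of a type and less RNA per cell cannot be told apart. Copies of mRNA were multiplied by global PCR before labelling, and the part of that amplification in any value below was not tested.

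Cxcl1 and Cxcl2 bind the receptor Cxcr2 and draw neutrophils to sites of injury. Their genes are classical targets of NF-kB, the transcription factor that interleukin-1 and tumour necrosis factor activate. Cxcl9, Cxcl10 and Cxcl11 share the receptor Cxcr3, attract activated T cells and are induced by interferons. Pf4 is stored in the granules of platelets, and Cxcl12 is made constitutively by stromal and endothelial cells and acts through Cxcr4 to retain and position leukocytes. In pancreatic islets, beta cells exposed to inflammatory cytokines are known to release Cxcl1 and Cxcl10.

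Of the 7 genes, 6 lie on rat chromosome 14 in the RefSeq annotation, and Cxcl12 lies on chromosome 4. Cxcl11, Cxcl10 and Cxcl9 are direct neighbours, Cxcl2 and Cxcl1 are direct neighbours, and Pf4 lies beside Ppbp, another platelet chemokine. In the array's own annotation the Cxcl1 and Cxcl2 probes were 13.2 kb apart, and the Cxcl9 and Cxcl11 probes were 36.6 kb apart with the Cxcl10 probe between them. RefSeq promoter sequences were found for 6 of the 7 genes, all but Pf4. The bases before the transcription start were searched on both strands for the kappaB consensus, the motif that NF-kB binds, and for GAAANNGAAA, a pair of interferon-response half-sites. A kappaB match stood within 250 bases before the start in 4 of the 6 promoters, against 3.54% of 33469 promoters. The GAAANNGAAA motif stood in 1 of the 6, that of Cxcl10, against 3.41% of all promoters. The stretches of 120 bases that hold these matches are shown because they place the same motif beside genes whose ratios went different ways. They run 5′ to 3′ on the gene's strand in GRCr8, with kappaB matches in capitals and, in Cxcl10 alone, GAAANNGAAA in capitals nearer the 5′ end. In Cxcl1 and Cxcl2, 2 matches that are offset by 1 base and overlap make up the capitals. The stretches end at the base before the start, except that of Cxcl10, which covers bases 250 to 131 before it.
Cxcl1 (chr14:17479322-17479441, minus strand): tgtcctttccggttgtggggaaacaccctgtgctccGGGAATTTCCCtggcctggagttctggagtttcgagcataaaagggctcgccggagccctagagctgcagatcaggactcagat
Cxcl2 (chr14:17467256-17467375, minus strand): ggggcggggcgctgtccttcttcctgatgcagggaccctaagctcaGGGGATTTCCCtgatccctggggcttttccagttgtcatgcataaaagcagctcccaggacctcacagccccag
Cxcl10 (chr14:15988816-15988935, plus strand): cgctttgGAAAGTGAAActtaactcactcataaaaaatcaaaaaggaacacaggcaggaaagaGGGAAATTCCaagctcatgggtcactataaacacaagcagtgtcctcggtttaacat
Cxcl11 (chr14:15973608-15973727, plus strand): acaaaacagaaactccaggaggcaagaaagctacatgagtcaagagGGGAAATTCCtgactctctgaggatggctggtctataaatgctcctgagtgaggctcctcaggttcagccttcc
The matches describe these letters and do not show that a factor bound there. In Cxcl1 the capitals span bases 84 to 74 before the start, in Cxcl2 bases 74 to 64 and in Cxcl11 bases 74 to 65. In Cxcl10 the kappaB match lay farther away, at bases 187 to 178, and GAAANNGAAA at bases 243 to 234. Nearer the start, past the stretch shown, the Cxcl10 promoter also holds gggaacttcc. It differs from the counted match in a single letter and was not counted. Looser forms of the consensus were not searched, so the kappaB counts hold only for the letters used. In Cxcl9 and Cxcl12 neither motif's letters were found within 250 bases before the start.

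The arrays differed in signal. The median gene spot was 5.26, 5.13, 2.94 and 5.10 times its local background in the extract order, so wild type 2 stood apart as the dimmest extract. Well above background, by the scanner software's mark, were 73.6% to 85.0% of gene spots and 0% of 153 negative controls. Among 1112 spots for olfactory receptors, genes of sensory neurons of the nose, the share was 77.4% to 90.1%, above the share of all gene spots in each extract. The mark alone therefore does not show that a gene was expressed. Insulin, the defining product of beta cells, was bright in every extract, with processed signals of 41460, 18583, 44623 and 22413 for Ins1 and of 96063, 46151, 100505 and 58001 for Ins2. Both were lower in HIP on each array, with log2 ratios of -1.18 and -1.02 for Ins1 and of -1.04 and -0.85 for Ins2, and an adjusted p of 0.942 by limma for each. The other islet probes did not share this direction. Of all 7, 3 had ratios above 1 on both arrays, 2 (Ins1 and Ins2) below 1 and 2 opposite ones. The rat's own Iapp was dim, at 85.5, 211, 66.2 and 127, with log2 ratios of 0.51 and 0.10. Among 8 acinar probes the counts above, below and opposite were 3, 1 and 4, and among 8 duct probes 2, 4 and 2. With limma, 0 of 7 islet, 8 acinar and 8 duct marker probes passed, and 0 of each list had an unadjusted p under 0.05. No probe on these arrays passed, so 0 passing in a list, here or below, does not describe that list. An unadjusted p under 0.05 by limma was reached by 3.27% of all tested probes, so 0 in a short list says little.

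For each CXC chemokine probe, the extracts of at least 1 genotype differed by more than the mean difference between genotypes. Cxcl1 was bright in HIP 1 only, Pf4 and Cxcl12 variant 1 in wild type 2 only, and Cxcl11 in both extracts of array 1. Cxcl11 was lower in HIP by more than 1.5-fold on each array by loess, and Cxcl10 stayed dim everywhere. No CXC chemokine passed the test. The highest extract was wild type 2 for 3 probes, HIP 2 for 3, wild type 1 for 1 and HIP 1 for 1. Counts of the highest extract, here and for the lists below, have no share over all probes beside them. They are a description. On the normalized log2 scale, the range between the lowest and highest extract had a median of 1.26 over the 33652 probes tested. For the 6 tested CXC chemokine probes it was 0.20 (Cxcl10), 1.06 (Cxcl2), 1.20 (Cxcl12 variant 3), 1.32 (Cxcl9), 3.10 (Pf4) and 3.99 (Cxcl11). Cxcl1 and Cxcl12 variant 1, which were not tested, ranged over 4.55 and 2.82. These ranges are a description.

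**Figure D1:**
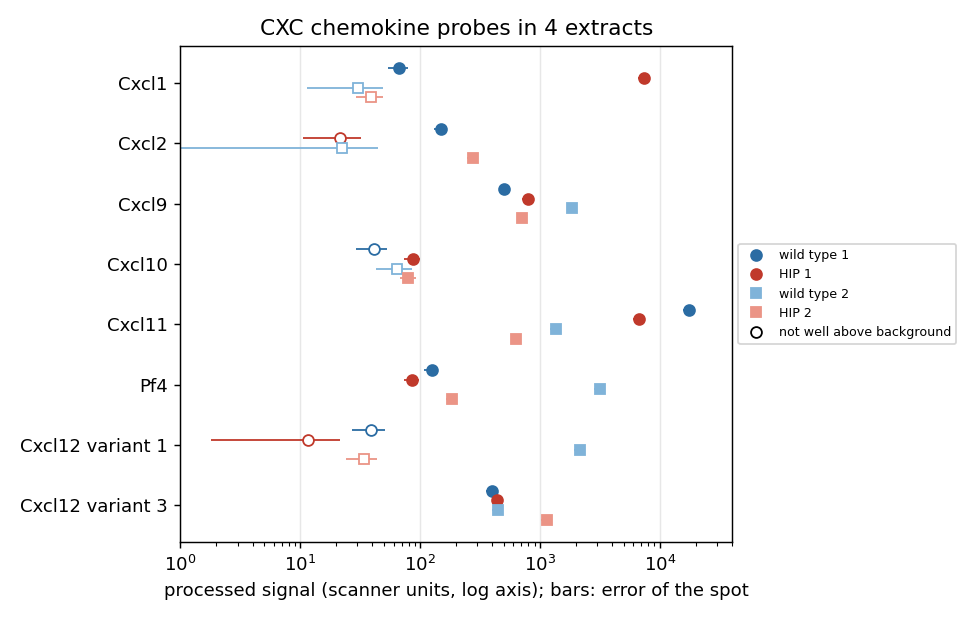
Processed signal of each CXC chemokine probe in the 4 extracts (scanner units, log axis), with the scanner software's error of the spot as bars, cut at 1. Filled points were well above background and open points were not. Cxcl1 stood at 7352 in HIP 1 and between 30.2 and 66.6 elsewhere.

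Cxcl1, the main neutrophil attractant of rodents, had processed signals of 66.6 ± 12.3 in wild type 1, 7352 ± 735 in HIP 1, 30.2 ± 18.7 in wild type 2 and 39.1 ± 10.2 in HIP 2, where ± is the software's error of a single spot. HIP 1 was high, and the other 3 extracts were low and close to each other. The genotypes overlapped, because HIP 1 was above wild type 1 and HIP 2 was below it, on the processed and the normalized scale. Normalized log2 levels were 6.43, 10.74, 6.28 and 6.19 in the same order. The spot was well above background in both dyes of array 1 and in neither dye of array 2, so it did not enter the test.

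The log2 ratio of HIP over wild type for Cxcl1 was 4.31 on array 1 and -0.084 on array 2, where neither dye was well above background. Its mean was 2.11 ± 3.11 (SD, n = 2 arrays), an SD larger than the mean itself. HIP 1 was 110-fold above wild type 1 by processed signal and 19.9-fold above it by the normalized ratio, in which an offset of 50 shrinks ratios of dim spots. A ratio at least as high as that of Cxcl1 on array 1 was found for 320 of 40991 probes (0.781%), and for 4 of 1112 olfactory receptor probes. Of the 320 probes, 47 were also at least 2-fold higher in HIP on array 2, 28 were at least 2-fold lower there and 245 lay within 2-fold. The share within 2-fold, 76.6%, was near that of all 40991 probes, 75.8%. Neither dye was well above background on array 2 for 63 of the 320 probes (19.7%), beside 14.8% of all probes, and there the offset holds ratios near 0. The pattern of marks seen for Cxcl1, well above background in both dyes of array 1 and neither of array 2, occurred in 1056 probes. Among those Cxcl1 had the 50th highest ratio on array 1, and their median ratio was -0.18.

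Markers of neutrophils, the cells that Cxcl1 attracts, differed among themselves in their highest extract, which was HIP 1 for 4 of 13 probes, wild type 2 for 5 and each other extract for 2. One of those 5, a probe of S100a8, was not well above background in any extract. The brighter probe of Camp, an antimicrobial peptide of neutrophil granules, was high in HIP 1 alone, at 832, 6769, 1090 and 1033 in the extract order, with log2 ratios of 2.56 and 0.03. Camp was singled out after its values were seen. The summed processed signal of the 13 neutrophil probes was 54137, 67137, 73758 and 94876, most of it from Lcn2 and 1 Elane probe, and 10 to 12 of the 13 probes were well above background in each extract. That Elane probe gave 20988, 32589, 23638 and 25231, whereas the other Elane probe gave 225, 273, 363 and 224. Which of them reports Elane was not tested. None of the 9 neutrophil genes with a probe was below background in all 4 extracts. With limma, 0 of 11 tested neutrophil probes passed, as did 0 of all 33652 tested probes, and 0 of the 11 had an unadjusted p under 0.05. The part of these markers in the Cxcl1 values was not tested.

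Cxcl2, a close relative that shares the receptor Cxcr2, had processed signals of 149 in wild type 1, 21.3 in HIP 1, 22.4 in wild type 2 and 275 in HIP 2. It was well above background in wild type 1 and HIP 2 only, so the genotypes overlapped and its high extracts were not those of its neighbour Cxcl1. The log2 ratio was -0.53 on array 1 and 0.74 on array 2, a mean of 0.11 ± 0.90 (SD, n = 2 arrays) that turned to -0.12 with median centring. By limma the adjusted p was 0.999. HIP 1, where Cxcl1 was bright, gave a Cxcl2 spot that was not well above background.

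Cxcl3, the third gene of this group on the array, had 2 probes that differed. One probe gave 1385, 1623, 3301 and 1026 in the extract order, with log2 ratios of 0.12 and -1.33. For the other, the signals were 32.5, 35.5, 102 and 2617, well above background in HIP 2 alone, and it was not tested. Which of these probes reports Cxcl3 was not tested. Cxcl6, another ligand of Cxcr2, had log2 ratios of -0.10 and 0.61. None of Cxcl1, Cxcl2 or either Cxcl3 probe was at least 2-fold apart the same way on both arrays.

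The receptors of these ligands were dim. Cxcr2 had processed signals of 85.7, 131, 89.5 and 83.7 and log2 ratios of 0.19 and 0.15. Cxcr1, the other receptor of this branch, had signals of 78.5, 67.6, 162 and 87.7 and log2 ratios of -0.02 and -0.20. Neither receptor differed by as much as 1.5-fold on an array by the normalized ratio, in which the offset shrinks ratios of such dim spots. By processed signal the log2 ratios were larger on some arrays, at 0.61 and -0.10 for Cxcr2 and -0.22 and -0.89 for Cxcr1.

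Among the ligands of Cxcr3, Cxcl11 was the one whose ratio pointed the same way on both arrays with a size above 1.5-fold. Processed signals of Cxcl11 were 17450 ± 1745 in wild type 1, 6671 ± 667 in HIP 1, 1352 ± 136 in wild type 2 and 634 ± 63.9 in HIP 2. They were brighter than 97.2%, 89.3%, 71.2% and 56.3% of olfactory receptor spots in the extract order. Within each array HIP was lower, but the genotypes overlapped, because both extracts of array 1 were above both extracts of array 2. The log2 ratio was -1.37 on array 1 and -0.73 on array 2, with a mean of -1.05 ± 0.45 (SD, n = 2 arrays, SE 0.43). It kept its sign in all planned settings but the ratios without normalization, where it was 0.44 and the median of all tested probes was 1.06.

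By limma the adjusted p of Cxcl11 was 0.942, the smallest value on the arrays, which other probes shared. By processed signal HIP was 2.62-fold lower on array 1 and 2.13-fold lower on array 2. The 2 wild-type extracts differed 9.59-fold and the 2 HIP extracts 6.16-fold on the normalized scale, both more than the genotypes did. A ratio at least as low was found for 11.3% of 40991 probes on array 1 and for 14.4% on array 2.

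Cxcl9, which is induced mainly by interferon-gamma, had processed signals of 503 in wild type 1, 791 in HIP 1, 1858 in wild type 2 and 712 in HIP 2. It was brighter than 45.2%, 58.6%, 75.7% and 58.8% of olfactory receptor spots in the extract order. Wild type 2 was high and the other 3 extracts lay near each other, so the genotypes overlapped. The log2 ratio was 0.32 on array 1 and -1.07 on array 2. The mean was -0.37 ± 0.99 (SD, n = 2 arrays), and it was 0.10 with median centring and 0.89 without normalization. The adjusted p by limma was 0.980. The wild-type extracts differed 2.49-fold and the HIP extracts 1.06-fold on the normalized scale.

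Cxcl10, the interferon-inducible ligand that lies between Cxcl9 and Cxcl11, was dim throughout, with processed signals of 41.2, 86.6, 64.6 and 79.7 in the extract order. It was well above background in both HIP extracts and in neither wild-type extract. Its normalized log2 levels, 6.19, 6.36, 6.35 and 6.39 in the same order, did not overlap between genotypes, but those of wild type come from spots not well above background, and HIP 1 and wild type 2 lay close together. The log2 ratio was 0.16 on array 1 and 0.04 on array 2, a mean of 0.10 ± 0.09 (SD, n = 2 arrays). With median centring the mean was -0.23, on a scale where the median of all tested probes was 0.27. The adjusted p by limma was 0.998.

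The 3 neighbouring ligands of Cxcr3 thus did not differ between genotypes in 1 direction. By loess, Cxcl11 was lower in HIP on both arrays (not without normalization), Cxcl9 went in opposite directions and Cxcl10 was slightly higher on both (lower with median centring). Cxcr3, their receptor on T cells, had processed signals of 1916, 1697, 1750 and 2052 and log2 ratios of -0.22 and 0.23. Summed signal of the 8 T cell probes was 45675, 13542, 36600 and 65953 in the extract order, lowest in HIP 1, with 7 or 8 of 8 well above background. The largest part of that sum in every extract but HIP 1 was Cd3d, a chain of the T cell receptor complex, at 38278, 3758, 30581 and 57744. The sum therefore mostly followed Cd3d. The highest extract was HIP 2 for 3 of the 8 T cell probes, HIP 1 for 2, wild type 2 for 2 and wild type 1 for 1. Summed macrophage signal was 15143, 16387, 55816 and 31507 over 10 probes, with 8 or 9 well above background. Cxcl9 and the macrophage sum were both highest in wild type 2. Most of that sum came from 1 probe of the marker Cd163 (25972) and from the marker Lyz2 (24038). The highest extract was wild type 2 for 7 of the 10 macrophage probes, wild type 1 for 2 and HIP 2 for 1. One of those 7, a probe of Mrc1, was not well above background in any extract. The share of all probes that were highest in wild type 2 was not counted. Of the tested probes, 0 of 7 for T cells and 0 of 8 for macrophages passed limma's test, and 0 of either had an unadjusted p under 0.05. No T cell or macrophage gene was below background in all 4 extracts, and the part of these markers in the values of Cxcl9, Cxcl10 and Cxcl11 was not tested.

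Pf4, the platelet granule chemokine, had processed signals of 125 in wild type 1, 85.9 in HIP 1, 3139 in wild type 2 and 184 in HIP 2, all well above background. It was brighter than 22.7%, 16.9%, 83.2% and 32.0% of olfactory receptor spots in the extract order. Wild type 2 was high and the other 3 extracts were low, so the genotypes overlapped. The log2 ratio was -0.11 on array 1 and -2.81 on array 2, a mean of -1.46 ± 1.90 (SD, n = 2 arrays, SE 0.90) with an adjusted p of 0.942 by limma. The wild-type extracts differed 7.93-fold and the HIP extracts 1.23-fold. A ratio at least as low as that of Pf4 on array 2 was found for 3.34% of all probes and for 3.60% of olfactory receptor probes.

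Other platelet genes were not set apart in wild type 2. The 6 platelet probes were well above background in every extract, and they summed to 25636, 23129, 30604 and 31199 in the extract order. Ppbp, the gene next to Pf4, had signals of 427, 747, 607 and 636 and log2 ratios of 0.43 and 0.11. Gp9, part of the platelet receptor for von Willebrand factor, had signals of 6338, 7343, 7007 and 7273. With limma, 0 of 6 platelet probes passed and 0 had an unadjusted p under 0.05.

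Cxcl12 was measured by 2 probes 5.99 kb apart in the array's annotation, and they gave different patterns. The probe for transcript variant 1 had processed signals of 39.2 in wild type 1, 11.7 in HIP 1, 2139 in wild type 2 and 33.9 in HIP 2, and was well above background in wild type 2 only. It did not enter the test. Its log2 ratio was -0.10 on array 1 and -2.82 on array 2, a mean of -1.46 ± 1.93 (SD, n = 2 arrays). Its normalized log2 levels were 6.07, 5.97, 8.66 and 5.84 in the extract order. The levels other than that of wild type 2 come from spots not well above background and have no order, so whether the genotypes overlap cannot be read.

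The probe for transcript variant 3 was well above background in all 4 extracts, with processed signals of 398, 439, 443 and 1137 in the extract order. It was brighter than 41.2%, 46.2%, 50.8% and 66.1% of olfactory receptor spots in that order. HIP 2 was high and the other 3 extracts lay together. The log2 ratio was -0.020 on array 1 and 0.87 on array 2, a mean of 0.42 ± 0.63 (SD, n = 2 arrays) with an adjusted p of 0.953 by limma. On array 2 the 2 probes of this gene therefore went in opposite directions, and on array 1 both were near even. Whether the probes report different transcripts was not tested.

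Cxcr4, the receptor of Cxcl12, also had 2 probes that differed on array 2. One gave processed signals of 468, 417, 481 and 307 and log2 ratios of -0.20 and -0.36. The other gave 1794, 1104, 1924 and 2636 and ratios of -0.70 and 0.50. Ackr3, the scavenger receptor for Cxcl12, was not well above background in any extract. The 10 stromal probes, for cells known to make Cxcl12, summed to 22175, 21461, 30056 and 27939 in the extract order, and Pdgfrb was not well above background in any extract. The 8 endothelial probes summed to 10033, 6819, 5949 and 7154, with 7 or 8 well above background. Of 8 tested probes in each list, 0 passed limma's test and 0 had an unadjusted p under 0.05. Neither sum set wild type 2 apart as the variant 1 probe did, and their part in its values was not tested.

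**Figure D2:**
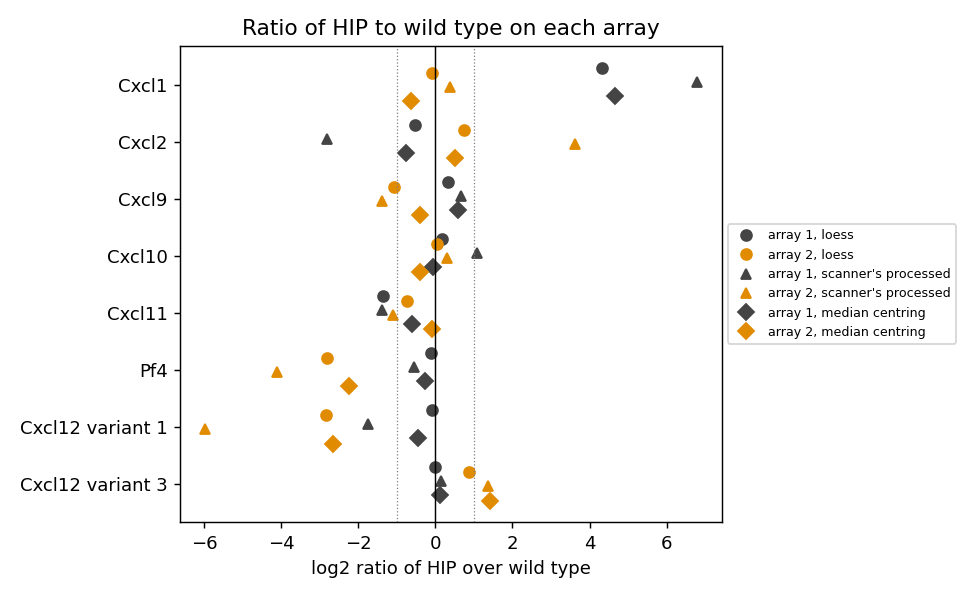
Log2 ratio of HIP over wild type for each probe on array 1 (grey) and array 2 (orange), by loess, from the scanner's processed signals and by median centring, with dotted lines at 2-fold. Cxcl11 lay below 0 on both arrays in these 3 settings, whereas the mean ratios of Cxcl2, Cxcl9 and Cxcl10 changed sign with median centring.

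Over all probes, no difference between the genotypes passed the test. With limma, 0 of 33652 probes passed at an adjusted p under 0.05 (0%), the smallest adjusted p was 0.942, and 1099 had an unadjusted p under 0.05. That count was 0 for the 6 tested CXC chemokine probes by either measure, and the count passing was also 0 in each of the 8 other settings. For 1 gene on 2 arrays, the smallest p an exact sign-flip test allows is 0.5. Of the 6 tested probes, 1 (Cxcl10) had ratios above 1 on each array (higher in HIP), against 26.9% of all tested probes. Another 2 (Cxcl11 and Pf4) were lower on both, against 22.9%, and 3 (Cxcl2, Cxcl9 and Cxcl12 variant 3) went opposite ways, against 50.2%.

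By loess, at least a 2-fold difference in the same direction on both arrays was seen for 0 of the 6 probes. Over all tested probes that share was 2.57% for higher and 2.44% for lower in HIP. From the scanner's processed ratios it was 1 of 6, Cxcl11, lower in HIP, against 4.68% for lower, and 0 of 6 higher, against 5.73%. By loess the 2-fold mark was passed on array 1 by 1 of 6, Cxcl11, against 30.5%, and on array 2 by 2 of 6, Cxcl9 and Pf4, against 28.0%. From the processed ratios these counts were 3 of 6 on array 1 (Cxcl2, Cxcl10 and Cxcl11), against 43.0%, and 5 of 6 on array 2, all but Cxcl10, against 43.6%. Both HIP levels lay on 1 side of both wild-type levels for 1 of 6, Cxcl10, against 30.9%. With 6 probes, none of these counts is read as particular to the CXC chemokines. Of all probes at least 2-fold apart the same way on both arrays, 51.3% were higher in HIP, a split that was 84.4% with median centring and 98.1% without normalization. The median of the mean log2 ratio was -0.14 over the 6 probes and 0.02 over all tested probes.

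**Figure D3:**
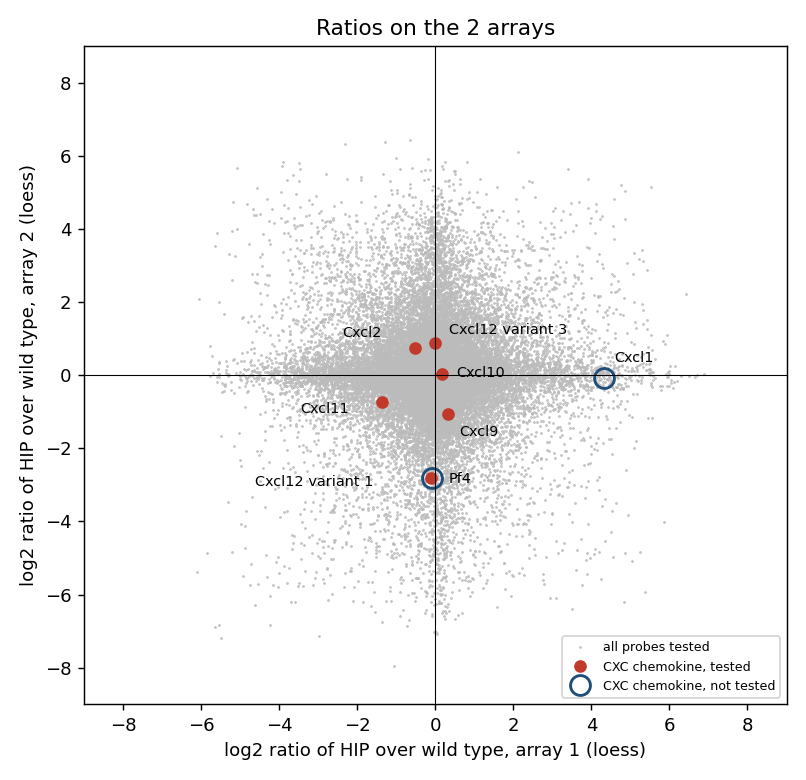
Log2 ratio of HIP over wild type on array 1 (horizontal) and array 2 (vertical) by loess, with each tested probe in grey and the 8 CXC chemokine probes marked. Open rings, Cxcl1 and Cxcl12 variant 1, were not tested. Cxcl1, Pf4 and Cxcl12 variant 1 lay along the axes, far from 0 on 1 array alone.

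Within-genotype differences exceeded the mean ratio for all 8 CXC chemokine probes in at least 1 genotype, as they did for 83.0% of tested probes. For Cxcl1, Cxcl2, Cxcl10 and Cxcl12 variant 1 these differences involve spots not well above background and are not exact. The median size of the difference between the wild-type extracts was 0.81 on the log2 scale for the 8 probes and 0.54 for all tested probes. Between the HIP extracts it was 0.68 and 0.51. The 8 probes include Cxcl1 and Cxcl12 variant 1, which were not tested, so they are not a like set to the tested probes. These differences are across arrays, so they hold the difference between arrays as well as that between extracts.

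**Figure D4:**
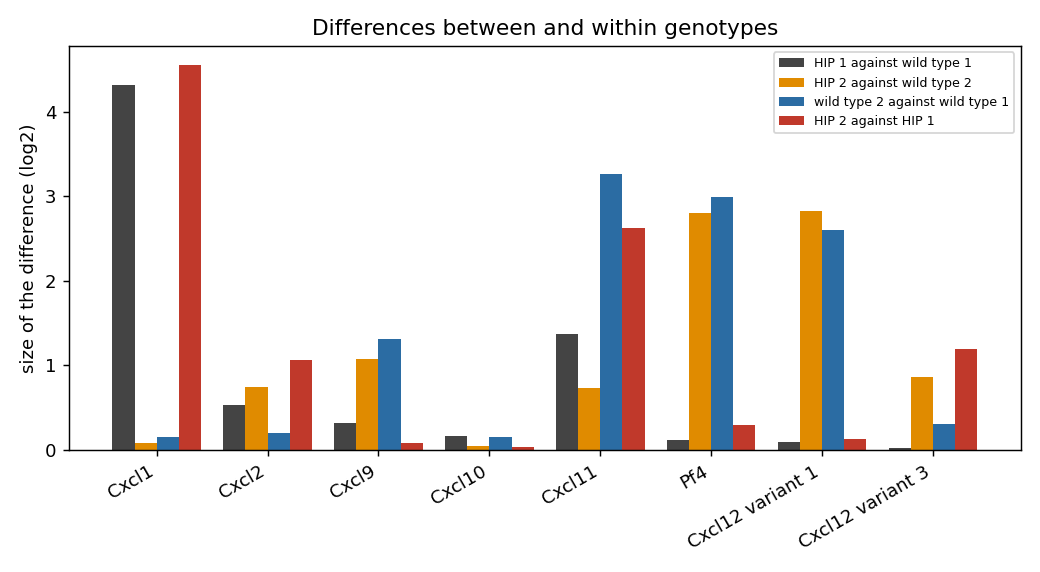
Size of the log2 difference for each probe between genotypes on each array (grey, orange) and between extracts of 1 genotype (blue, wild type; red, HIP), on the normalized scale. For Cxcl11 both within-genotype bars exceed both ratios.

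The other ligands of the family gave a similar picture. Of 7 further CXC ligands, 6 had a probe, and 6 probes were tested. With limma 0 of these passed and 0 had an unadjusted p under 0.05. One probe, that of Ppbp, was higher in HIP on both arrays, none was lower on both and 5 went opposite ways. Over all tested probes these shares were 26.9%, 22.9% and 50.2%. Cxcl13, the attractant of B cells, had signals of 2381, 46.3, 72.4 and 1349 and log2 ratios of -3.27 and 1.86, past 2-fold in opposite directions. Its name was singled out after its values were seen. Cxcl17, a mucosal chemokine and the brightest of this list, had signals of 8091, 11358, 7101 and 6633 and log2 ratios of 0.52 and -0.03. Cxcr5, the receptor of Cxcl13, had signals of 314, 1731, 1564 and 721 and log2 ratios of 1.65 and -0.74. Over the 6 tested receptor probes, 1 had ratios above 1 on both arrays, 2 below 1 and 3 opposite ones, beside the same shares of all tested probes. Of these receptor probes, 0 passed limma's test and 0 had an unadjusted p under 0.05.

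Of 7 tested probes of cytokines that act upstream of these chemokines, 4 had ratios below 1 on both arrays, 1 above 1 and 2 opposite ones. Over all tested probes these shares were 22.9%, 26.9% and 50.2%. With 7 probes, the count is a description. Interleukin-1 beta, which induces Cxcl1 and Cxcl2, had 1 probe at 2766, 990, 4962 and 535 in the extract order, with log2 ratios of -1.35 and -2.22. Both HIP extracts were below both wild-type extracts on that probe, whose adjusted p by limma was 0.942. Among all tested probes, 30.9% had both normalized HIP levels on 1 side of both wild-type levels, and 2.44% were at least 2-fold lower in HIP on both arrays. The second Il1b probe, at 278, 546, 515 and 202, had ratios of 0.48 and -0.62 and overlapped. By limma 0 of the cytokine probes passed and 1, the first Il1b probe, had an unadjusted p under 0.05, as had 3.27% of all tested probes. Ifnb1, the gene of interferon-beta, had signals of 6551, 2846, 3776 and 3654 and log2 ratios of -1.15 and 0.08. HIP 1, the extract with the high Cxcl1 signal, was the highest for 2 of the 8 cytokine probes, the second Il1b probe and Il1a. Il1a, the gene of interleukin-1 alpha, had signals of 473, 1289, 123 and 210 and log2 ratios of 0.89 and 0.21, and it was singled out after its values were seen.

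Targets of NF-kB and of interferon-gamma did not follow 1 direction. Among 10 tested probes of NF-kB feedback genes, 4 had ratios above 1 on both arrays, 1 below 1 and 5 opposite ones. Over all tested probes these shares were 26.9%, 22.9% and 50.2%. Nfkbiz, an inducible cofactor of NF-kB, had signals of 33167, 35786, 22635 and 55782 and log2 ratios of 0.14 and 1.29. Nfkbia, the inhibitor that NF-kB induces to restrain itself, had ratios of -1.08 and 0.79 on its brighter probe and of -1.20 and -0.20 on the other. Of 9 tested probes of interferon-gamma targets, 2 had ratios above 1 on both arrays, 1 below 1 and 6 opposite ones, beside the same shares of all tested probes. The highest extract was wild type 1 for 5 of the 11 NF-kB probes, HIP 1 for 3, wild type 2 for 1 and HIP 2 for 2. Those highest in HIP 1 included Icam1, a leukocyte adhesion molecule, at 1439, 4733, 1355 and 1984. They also included 1 probe of Nfkb1, an NF-kB subunit, at 315, 2614, 43.8 and 88.5. The other Nfkb1 probe was highest in HIP 2, at 732, 1029, 1300 and 4762, with log2 ratios of 0.25 and 1.68. Icam1 and Nfkb1 were singled out after their values were seen. Irf1, a transcription factor of the interferon response, had ratios of 0.59 and -0.34. Gbp2, an interferon-inducible GTPase, had signals of 3203, 3331, 7834 and 1294 and ratios of 0.05 and -2.24. Gbp2 was highest in wild type 2, as Cxcl9 was, but wild type 2 was the highest extract for only 2 of the 12 interferon-gamma target probes. Wild type 1 was the highest for 4, HIP 1 for 3 and HIP 2 for 3. With limma 0 probes of either list passed, and 0 had an unadjusted p under 0.05.

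The genes whose signal over the 4 extracts was closest to that of Cxcl1 were Gnai3, Pus3, Or1j21, Lman1 and Panx3, of 15474 genes searched. Closeness was the Euclidean distance of log2 processed signals, each minus its extract's median, over 4 extracts, with each gene searched by its brightest probe. The distances were 0.70, 0.87, 0.89, 0.93 and 1.02. Or1j21 is an olfactory receptor gene, and its signals were 105, 9735, 31.2 and 52.6 in the extract order. Gnai3, a G protein subunit, had 85.8, 9464, 28.1 and 53.9. That these genes were high in HIP 1 alone, as Cxcl1 was, follows from how they were searched for and is no separate result.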

How the data were processed

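Gene expression was measured on 2 two-colour Agilent rat arrays, 1 wild-type and 1 HIP extract each, on 1 slide and in 1 scan. Per the file headers, the authors quantified spots in Agilent Feature Extraction 9.5.1.1. Their deposited scanner files give spot and local background intensity as scanned, and a processed signal intensity that was background-subtracted and dye-normalized, per the file headers. The authors' deposited table holds log10 ratios of Cy5 over Cy3, and all 8 CXC chemokine probes equalled the scanner's log10 ratio within 2e-05.

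The intensities were processed with limma 3.58.1 in R 4.3.3. Correction of background used normexp (offset 50), and ratios were normalized by loess within each array, with control spots at weight 0. Spots with an outlier mark were left out, and probe ratios of HIP over wild type were taken on the log2 scale from the deposited intensities. Levels per extract, also log2 values from the deposited intensities, were made comparable across arrays with Aquantile. Probes that on each array were well above background in 1 dye or both entered lmFit and eBayes, which tested the mean ratio against 0 (two-sided, residual degrees of freedom 1, prior degrees of freedom 1.7, prior SD 0.679, Benjamini-Hochberg over 33652 probes at 0.05). The code was tested on simulated data, with recovery of changed probes required only at a spread smaller than that on these arrays. It therefore does not show that a change would be found at the spread seen here. Array numbers limit the precision.

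Named are all CXC chemokine probes, every tested receptor probe and, in the related lists (other CXC ligands, NF-kB feedback genes, interferon-gamma targets, upstream cytokines), genes at least 2-fold apart the same way on both arrays in every tested probe and the 2 brightest, plus the 5 genes closest to Cxcl1. Ackr3 and Pdgfrb are named as not well above background in any extract. Ppbp, Cxcl6, Cxcl13, Il1a, Icam1, Nfkb1 and the named marker genes were added after their values were seen. Names were updated through RefSeq genes of GRCr8, and the build of the array's own positions was not given in the sources used here. The members and lists were chosen with earlier results of these data known. Alternatives were the scanner's processed ratios, median centring, no normalization, no background subtraction, outlier spots kept, other filters, a trended prior, the authors' table and each array alone.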

Additional observations from a re-analysis of the deposited data

How the results depend on the processing

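No probe passed the limma test in any of the 9 settings that could be fitted, while unadjusted p under 0.05 was reached by 976 to 5590 probes, so the low count gives no information on stability. Leaving out 1 array leaves no residual degree of freedom, so those values carry no test. The share of tested probes at least 2-fold apart on both arrays was 10.4%, and it was 21.2% with the scanner's processed ratios and 32.6% without normalization. The cause was not tested. Median centring turned the mean log2 ratios of Cxcl2 (to -0.12), Cxcl9 (to 0.10) and Cxcl10 (to -0.23), and omitting normalization turned those of Cxcl9 (to 0.89) and Cxcl11 (to 0.44), both settings in which the median of all probes was above 0. Relative to that median, in either setting, Cxcl9 (-0.17) and Cxcl11 (-0.62) kept their sign, whereas Cxcl2 (-0.39) and Cxcl10 (-0.50) lay on the other side of it from their 0.08 each by loess. No CXC chemokine turned with the scanner's processed ratios, without background subtraction, with outlier spots kept or in the authors' deposited table. With 1 array left out in turn, mean ratios ran from -0.084 to 4.31 for Cxcl1, from -0.53 to 0.74 for Cxcl2, from -1.07 to 0.32 for Cxcl9 and from -0.020 to 0.87 for Cxcl12 variant 3. The test is itself paired by array, because each ratio sets the HIP extract against the wild-type extract of the same array. Signal over background limits Cxcl1, Cxcl2, Cxcl10 and Cxcl12 variant 1, each with at least 2 extracts not well above background.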

Other observations

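One further probe, annotated by the array as similar to part of platelet factor 4 but carrying no gene symbol, was left out of the CXC chemokine probes and was noticed after its values were seen. Its processed signals were 806 in wild type 1, 5369 in HIP 1, 363 in wild type 2 and 2323 in HIP 2, all well above background. Its log2 ratios were 2.27 and 1.88, higher in HIP on both arrays, whereas those of the Pf4 probe were -0.11 and -2.81. By processed signal both HIP extracts exceeded both wild-type extracts on that probe. Among all tested probes, 30.9% had both normalized HIP levels on 1 side of both wild-type levels. At least 2-fold higher in HIP on both arrays were 2.57%, and no tested probe passed limma's test. The order on this probe, picked by its values, is a description only.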
